A study of Mus musculus with 12 samples.

Results

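A set of 10 enzymes that remove superoxide, peroxides and haem, or that supply the reducing power for this, was followed by gene symbol through the deposited table of retinal transcripts: Gpx1, Gpx3, Gpx4, Sod1, Sod2, Sod3, Cat, Prdx6, Hmox1 and Nnt. These 10 symbols stood on 11 identifiers of the 56748 in the table, since Nnt had 2. Of the 10 symbols, 9 held enough counts to be tested and Nnt did not. The symbols were named with earlier results of these libraries known, and which values led to each choice is not recorded. Gpx3 and Nnt lead the name of the set, so their values are given as a description with no p-value, and the tests of the other 8 genes are not independent evidence.

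Retinas of the inbred mouse line JR5558, known for neovessels that arise spontaneously beneath the retina, were compared whole with retinas of C57BL/6J mice of the same age. The 4 groups, each of 3 mice and 1 retina per mouse, were JR5558 at 8 weeks, JR5558 at 4 weeks, C57BL/6J at 8 weeks and C57BL/6J at 4 weeks of age. Messenger RNA was selected by its poly-A tail and sequenced as paired-end reads. Known alleles of JR5558 are rd8 (in Crb1) and a variant of Jak3, and C57BL/6J is known to lack several exons of Nnt. These alleles were not genotyped in the libraries, and JR5558 differs from C57BL/6J at more loci than those known to matter for vessels.

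Superoxide dismutases turn superoxide into hydrogen peroxide, in the cytosol (Sod1), in mitochondria (Sod2) and outside the cell (Sod3). Catalase, the glutathione peroxidases and peroxiredoxin 6 then reduce peroxides, and nicotinamide nucleotide transhydrogenase (Nnt) of the inner mitochondrial membrane makes NADPH for the recycling of glutathione. The retina, with its high oxygen use and its oxidation-prone photoreceptor membranes, relies on these enzymes.

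Totals were 18029611 to 23739886 counts per library. The summed level of 10 rod markers was 56413 to 68588 CPM (counts over the TMM-scaled library size, times 1e+06; TMM is the trimmed mean of M-values), so the labelled tissue held its defining cells. The labels give no sex. Xist, from the inactive X chromosome, had 2, 5 and 0 counts in JR5558 at 4 weeks, against 7772 to 22988 in the remaining 9 libraries. Ddx3y, on the Y chromosome, had 1846, 1504 and 1323 counts in JR5558 at 4 weeks and 0 elsewhere. Sex therefore cannot be told apart from age in JR5558, nor from strain at 4 weeks. The 19 pigment epithelium markers summed to 549 to 745 CPM in JR5558 and 247 to 398 CPM in C57BL/6J at 8 weeks. At 4 weeks they summed to 474 to 677 CPM in JR5558 and 177 to 334 CPM in C57BL/6J. C57BL/6J 4-week replicate 3 stood apart, with 62.6 CPM of the lens gene Cryaa (0 to 25.3 CPM elsewhere) and 10.9 on the third principal component of the 500 most variable genes (-5.95 to 4.76 elsewhere). JR5558 4-week replicate 3 was doubted from earlier results of these data, although its first 3 components lay near those of its group here. In whole retina, fewer cells of a type and less RNA per cell cannot be told apart.

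Of the 10 enzymes, 3 (Gpx1, Gpx3 and Gpx4) are selenoproteins, in which a UGA codon is read as selenocysteine, the residue that reduces the peroxide. The codon is shown in capitals as TGA with 15 coding bases on either side, read from the GENCODE M21 annotation of GRCm38, because it is what these 3 share and the other 7 lack.
Gpx1, codon 47, chr9:108339451-108339453, plus strand: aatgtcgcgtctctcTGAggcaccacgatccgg
Gpx3, codon 73, chr11:54907256-54907258, plus strand: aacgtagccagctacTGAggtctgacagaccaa
Gpx4, codon 129 of the model used, chr10:80054737-80054739, plus strand: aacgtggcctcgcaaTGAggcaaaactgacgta
The annotation marks such a codon in 24 mouse genes, of which 22 were tested here. Of the 21 tested apart from Gpx3, 1 (Dio2) was higher and 0 lower in JR5558 than in C57BL/6J at 8 weeks (edgeR adjusted p under 0.05), where 5.18% of all tested genes passed, and 5 had an unadjusted p under 0.05. At 4 weeks 2 (Selenon and Txnrd3) were higher and 0 lower, where 6.16% of all tested genes passed, and 4 had an unadjusted p under 0.05. With age, 1 (Dio2) was higher and 0 lower at 8 weeks in JR5558, where 1.51% of all tested genes passed. In C57BL/6J 0 passed, where 0.431% of all tested genes did. An unadjusted p under 0.05 with age was held by 4 in JR5558 and 5 in C57BL/6J. These percentages refer to adjusted p, and no share of all tested genes is given for unadjusted p.

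The promoters of Gpx3, the enzyme with the widest range across groups, and Sod2, with a narrow one, are shown as RefSeq gives them for GRCm38.p6, from 250 bases before the start site to 50 after it. Capitals mark GGGCGG (the GC box), CCAAT (the CCAAT box), TGACNNNGC (the core of the antioxidant response element) and TATAAA (the TATA box), each searched on both strands, where overlapping matches count for each motif.
Gpx3, chr11:54902604-54902903, plus strand: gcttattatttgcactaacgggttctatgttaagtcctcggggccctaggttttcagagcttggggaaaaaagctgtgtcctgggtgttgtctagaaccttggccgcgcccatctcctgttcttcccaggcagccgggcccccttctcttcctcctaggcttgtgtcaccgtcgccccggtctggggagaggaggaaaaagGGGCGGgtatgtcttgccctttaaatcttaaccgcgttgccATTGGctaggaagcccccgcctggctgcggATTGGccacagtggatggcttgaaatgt
Sod2, chr17:13007589-13007888, plus strand: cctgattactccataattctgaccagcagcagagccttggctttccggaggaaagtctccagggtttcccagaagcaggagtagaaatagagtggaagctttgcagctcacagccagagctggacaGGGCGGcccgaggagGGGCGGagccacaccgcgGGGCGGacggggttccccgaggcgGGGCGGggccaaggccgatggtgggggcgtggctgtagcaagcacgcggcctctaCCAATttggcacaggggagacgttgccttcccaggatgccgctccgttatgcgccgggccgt
The Gpx3 window held 1 GC box and 2 CCAAT boxes, and the Sod2 window 4 GC boxes and 1 CCAAT box. Of the 10 symbols, 6 (Cat, Gpx1, Gpx3, Gpx4, Sod1 and Sod2) had a promoter entry. These 6 had 9 entries together. All 6 held a GC box in at least 1 entry, and 5 held a CCAAT box. Of 32851 single promoters, 35.7% held a GC box and 37.4% a CCAAT box. The enzymes are counted by symbol and the promoters by entry, so the shares are not on the same unit. TGACNNNGC, found in 12.4% of promoters, and TATAAA, found in 13.6%, occurred only in Sod1 among the 6. These matches describe letters in a window and not binding.

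Levels between genes were compared per length, on the authors' FPKM scale. The deposited lengths were 1724 bases for Gpx4, 1813 for Gpx3, 3970 for Sod1, 4804 for Prdx6 and 10008 for Sod2. Where such a length joins the exons of several models, it can exceed that of the transcript present and lower the FPKM. The order of genes below is uncertain to that extent. Gpx4, the peroxidase that reduces lipid hydroperoxides within membranes, stood far above the others with a median of 255 FPKM over the 12 libraries (218 to 304). Gpx3 followed at 31.1 FPKM (14.2 to 72.9), Sod1 at 29.9 FPKM (20.5 to 36.8) and Prdx6 at 28.2 FPKM (23.5 to 37.0), 3 ranges that overlapped. Sod2 ran from 14.2 to 16.2 FPKM, below every library of Sod1 and Prdx6. Cat stood at 13.0 FPKM (9.99 to 14.0), with every library below every library of Sod2. The lowest tested genes were Sod3 at 3.80 FPKM (1.45 to 5.21), Gpx1 at 2.34 FPKM (1.72 to 3.10) and Hmox1 at 2.07 FPKM (1.56 to 2.98), whose ranges overlapped. Nnt had a median of 0.041 FPKM (0.0074 to 0.069).

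**Figure D1:**
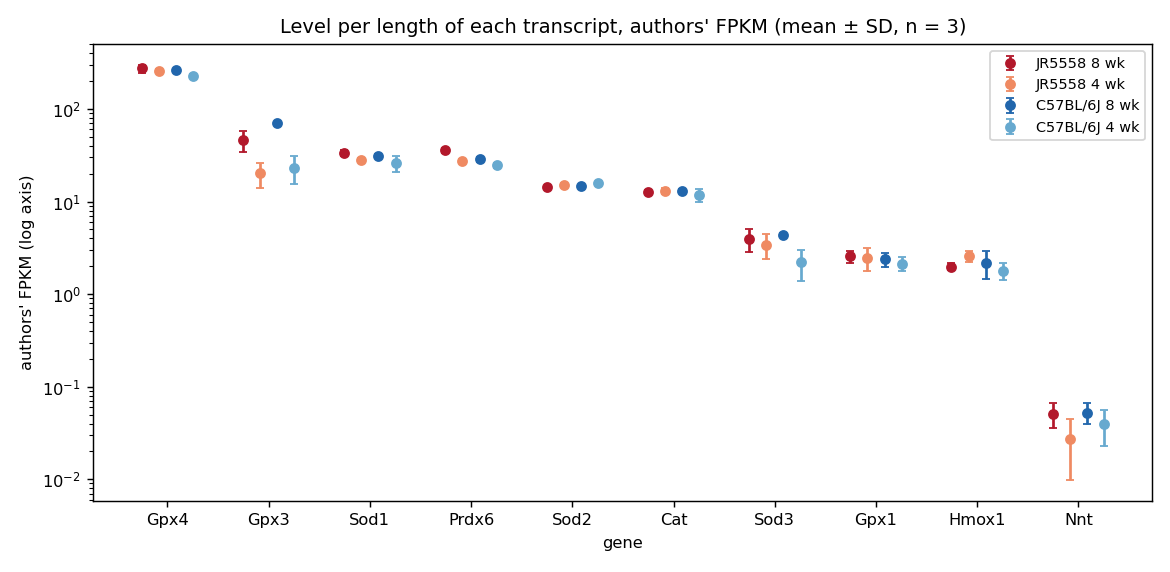
Authors' FPKM of each enzyme on a log axis, as the mean and SD of 3 retinas in each group, with groups in the order of the legend. Gpx4 lies highest, near 255 FPKM, and Nnt lowest, near 0.041 FPKM, and Gpx3 shows the widest spread between groups.

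Gpx3 encodes the secreted glutathione peroxidase that circulates in plasma. Its level was 61.5, 104.1 and 86.0 CPM in the 3 JR5558 retinas of 8 weeks and 49.7, 32.1 and 28.3 CPM in those of 4 weeks. In C57BL/6J it was 133.3, 122.6 and 128.4 CPM at 8 weeks and 51.8, 48.7 and 25.8 CPM at 4 weeks. In both strains every 8-week retina lay above every 4-week retina, and at 8 weeks every JR5558 retina lay below every C57BL/6J retina. At 4 weeks the strains overlapped.

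Group means were thus 83.9 ± 21.3 CPM in JR5558 and 128 ± 5.35 CPM in C57BL/6J at 8 weeks, and 36.7 ± 11.4 CPM in JR5558 and 42.1 ± 14.2 CPM in C57BL/6J at 4 weeks (SD, n = 3 each). Gpx3 was higher at 8 weeks than at 4 weeks by a log2 fold change of 1.19 ± 0.22 in JR5558 and 1.61 ± 0.23 in C57BL/6J (estimate ± SE). By the same fit, JR5558 minus C57BL/6J was -0.61 ± 0.22 at 8 weeks and -0.19 ± 0.23 at 4 weeks. The change of the strain difference with age was -0.42 ± 0.31.

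**Figure D2:**
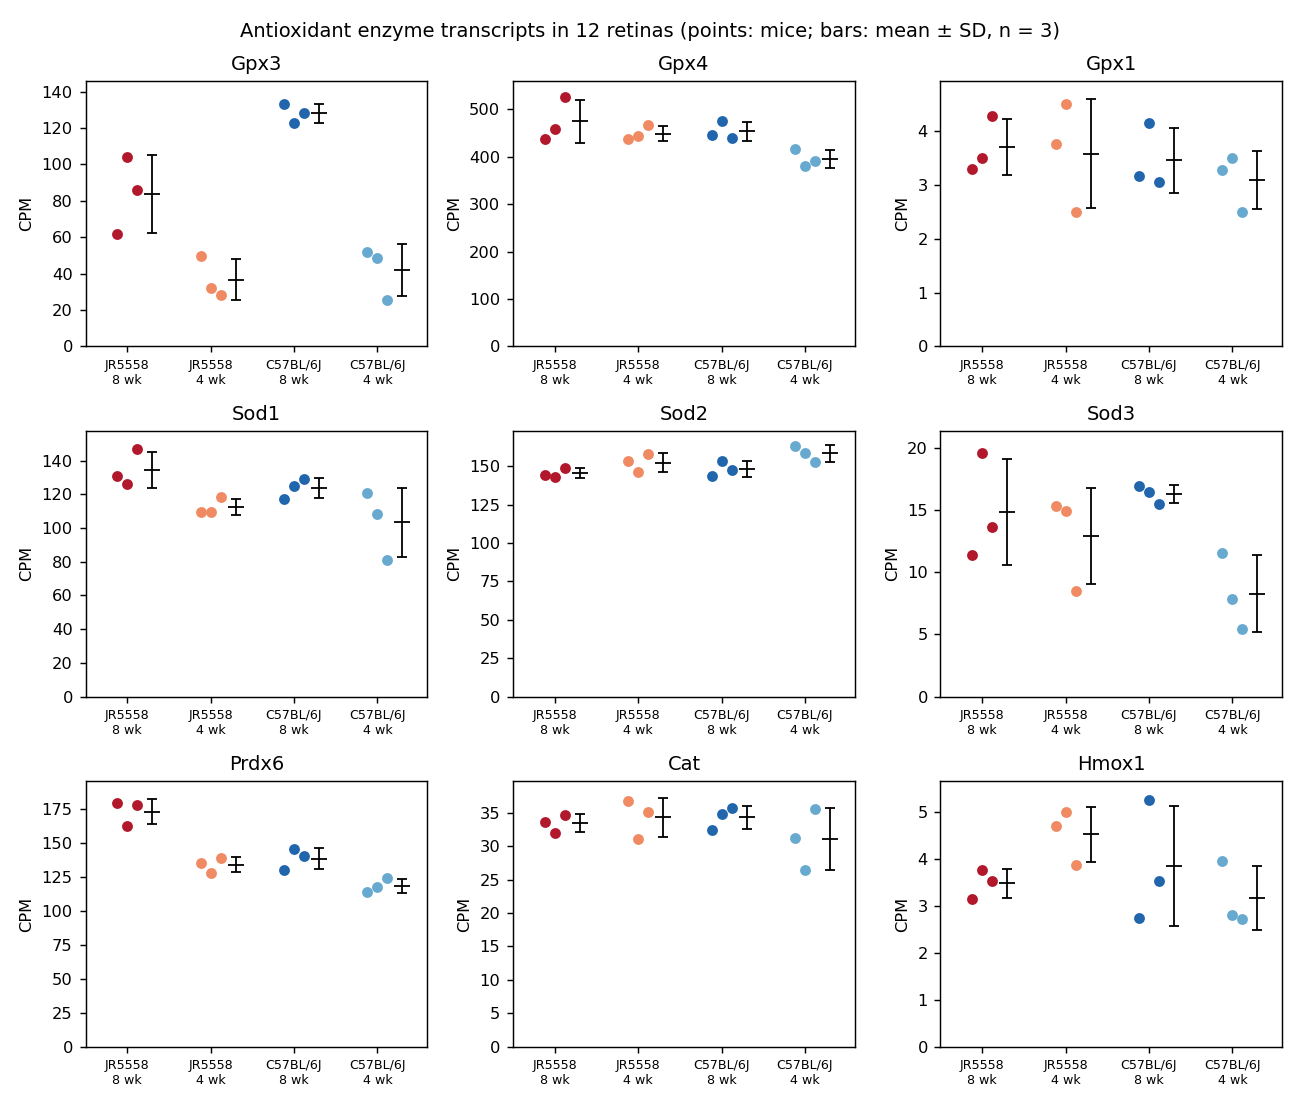
Level of the 9 tested enzymes in CPM, 1 point per retina in order of replicate number and a bar for the mean ± SD of 3 mice, in the 4 groups. Gpx3 separates by age in both strains (61.5 to 104.1 against 28.3 to 49.7 CPM in JR5558), Prdx6 is highest in JR5558 at 8 weeks, and Sod2 stays near 150 CPM in every group.

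In JR5558, where age and sex cannot be told apart, the Gpx3 age difference ranged from 1.01 to 1.48 over all alternatives. In C57BL/6J, where all 6 libraries held Xist and none Ddx3y, it ranged from 1.35 to 1.79. The lowest 4-week value of each strain was that of replicate 3. Without both of these libraries the age difference was 1.03 ± 0.17 in JR5558 and 1.35 ± 0.17 in C57BL/6J. The 8-week strain difference ranged from -0.79 to -0.38, and the 4-week strain difference from -0.48 to 0.10. The rod markers summed to 58001 to 59980 CPM at 8 weeks and 56413 to 63108 CPM at 4 weeks in JR5558, and to 65902 to 68588 CPM at 8 weeks and 57389 to 62214 CPM at 4 weeks in C57BL/6J; their part in the Gpx3 difference was not tested. The pigment epithelium sums overlapped between ages in both strains, and with their score as a covariate the age differences were 1.19 ± 0.22 in JR5558 and 1.67 ± 0.24 in C57BL/6J. With that covariate, JR5558 minus C57BL/6J was -0.38 ± 0.37 at 8 weeks and 0.10 ± 0.44 at 4 weeks. The score also separates the strains, and the part of pigment epithelium in the Gpx3 differences was not tested.

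Likeness to Gpx3 was sought among tested genes with a mean of at least 1 CPM, with pseudogenes and unnamed gene models left out. Among these, the 5 whose log2 CPM followed Gpx3 most closely over the 12 libraries were Glt1d1 (Pearson r = 0.949), Gprc5c (0.922), Comtd1 (0.915), Ptp4a3 (0.909) and Psmc4 (0.902). These correlations are descriptions over libraries that share strain, age and depth. Glt1d1, the closest of the genes searched, averaged 13.9 ± 0.83 CPM in JR5558 and 14.2 ± 0.78 CPM in C57BL/6J at 8 weeks, and 10.1 ± 0.72 CPM in JR5558 and 10.6 ± 1.96 CPM in C57BL/6J at 4 weeks (SD, n = 3 each).

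The other glutathione peroxidases were flatter. Gpx4 measured 438.5, 459.7 and 525.9 CPM in JR5558 and 446.5, 476.2 and 439.3 CPM in C57BL/6J at 8 weeks. The 4-week levels were 437.7, 443.7 and 466.1 CPM in JR5558 and 416.9, 380.6 and 390.7 CPM in C57BL/6J, and the strains did not overlap. The 4-week strain difference was 0.18 ± 0.07 on the log2 scale (edgeR quasi-likelihood test with Benjamini-Hochberg adjustment, adjusted p = 0.175), which did not pass. The age difference in C57BL/6J, where the ages did not overlap either, was 0.20 ± 0.07 (edgeR adjusted p = 0.231). A processed pseudogene, Gpx4-ps2, took 12.2% to 14.6% of the counts of the pair, so the level of Gpx4 is uncertain by the way reads were split. Gpx1, the cytosolic glutathione peroxidase, ranged from 2.49 to 4.49 CPM with all groups overlapping. Its low level is uncertain, since an antisense RNA (ENSMUSG00000121068) covers 1210 of its 1441 bases and the sources used here do not say whether reads falling on both were counted.

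Sod3, the extracellular dismutase, measured 11.4, 19.6 and 13.6 CPM in JR5558 and 16.9, 16.5 and 15.5 CPM in C57BL/6J at 8 weeks. At 4 weeks it measured 15.3, 14.9 and 8.5 CPM in JR5558 and 11.6, 7.9 and 5.4 CPM in C57BL/6J. C57BL/6J retinas of 8 weeks all lay above those of 4 weeks, while JR5558 retinas overlapped between ages. The age difference was 0.20 ± 0.24 in JR5558 (edgeR adjusted p = 0.721) and 0.99 ± 0.25 in C57BL/6J (edgeR adjusted p = 0.104), and neither passed. DESeq2 called it in C57BL/6J (adjusted p = 0.00851), as did edgeR without 4-week replicate 1 (adjusted p = 0.024). The 4-week replicates 3 held the lowest value of their groups in both strains. Without them the age difference in C57BL/6J was 0.75 ± 0.19 and did not pass (edgeR adjusted p = 0.0676). The difference between the strains' age effects was -0.78 ± 0.35 (edgeR adjusted p = 0.657). JR5558 minus C57BL/6J was -0.13 ± 0.24 at 8 weeks (edgeR adjusted p = 0.846) and 0.65 ± 0.25 at 4 weeks (adjusted p = 0.152), and the 4-week value passed without JR5558 4-week replicate 3 (adjusted p = 0.0343) or C57BL/6J 4-week replicate 1 (adjusted p = 0.0275). With no filter on low counts, the 4-week strain difference (0.65 ± 0.16, edgeR adjusted p = 0.00242) and the age difference in C57BL/6J (0.98 ± 0.16, edgeR adjusted p = 6.26e-07) both passed. With a pigment epithelium covariate the 4-week strain difference did not pass (0.91 ± 0.48, edgeR adjusted p = 0.459).

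Sod1, the cytosolic copper and zinc enzyme, measured 130.6, 126.4 and 146.7 CPM in JR5558 and 117.2, 124.7 and 128.9 CPM in C57BL/6J at 8 weeks. Its 4-week levels were 109.8, 109.6 and 118.2 CPM in JR5558 and 120.8, 108.3 and 81.0 CPM in C57BL/6J, the lowest value being that of C57BL/6J replicate 3. The age difference was 0.26 ± 0.11 in both strains (edgeR adjusted p = 0.235 in JR5558 and 0.285 in C57BL/6J). The strain difference at 4 weeks was 0.12 ± 0.11 (adjusted p = 0.609). Without the 4-week replicates 3 of both strains, the age difference passed in JR5558 at 0.29 ± 0.08 (adjusted p = 0.0162) and was 0.11 ± 0.08 in C57BL/6J (adjusted p = 0.562), and the 4-week strain difference was -0.06 ± 0.08 (adjusted p = 0.733). Sod1 shares 650 bases with Scaf4 on the opposite strand. Sod2, the mitochondrial manganese enzyme, stayed within 143 to 163 CPM, and its 4 differences lay between -0.10 and -0.03 with none past the threshold.

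Prdx6, a peroxiredoxin that also repairs oxidised phospholipids, was higher in JR5558 than in C57BL/6J at 8 weeks and higher at 8 weeks than at 4 weeks in JR5558. It measured 178.8, 161.9 and 177.8 CPM in JR5558 and 129.6, 144.9 and 140.4 CPM in C57BL/6J at 8 weeks. At 4 weeks it measured 135.3, 127.7 and 138.3 CPM in JR5558 and 113.8, 117.2 and 124.1 CPM in C57BL/6J. The JR5558 retinas of 8 weeks stood above all other 9 retinas, and no pair of groups compared overlapped.

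The strain difference of Prdx6 was 0.32 ± 0.07 at 8 weeks (edgeR adjusted p = 0.0125), a fold of 1.25, and 0.18 ± 0.07 at 4 weeks (adjusted p = 0.194). The age difference was 0.37 ± 0.07 in JR5558 (edgeR adjusted p = 0.0150), a fold of 1.29, and 0.22 ± 0.07 in C57BL/6J (adjusted p = 0.181). The interaction of 0.15 ± 0.10 did not pass (edgeR adjusted p = 0.812), so the effects were not shown to differ between strains or ages. The 8-week strain call was lost without JR5558 replicate 1 (adjusted p = 0.0797), JR5558 replicate 3 (0.0725) or C57BL/6J replicate 1 (0.0899), and with a pigment epithelium covariate (0.25 ± 0.12, adjusted p = 0.445). The age call in JR5558 was lost without 4-week replicate 1 (adjusted p = 0.0506), 4-week replicate 2 (0.0960), 8-week replicate 1 (0.0819) or 8-week replicate 3 (0.103), and there age and sex cannot be told apart.

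Levels of 12 Müller glia markers are given beside those of Prdx6. They summed to 7657 to 8107 CPM in JR5558 and 6209 to 6620 CPM in C57BL/6J at 8 weeks, and to 6258 to 7174 CPM in JR5558 and 5191 to 6293 CPM in C57BL/6J at 4 weeks. The sums did not overlap between strains at 8 weeks and overlapped at 4 weeks. Between ages they did not overlap in JR5558 and overlapped in C57BL/6J. Of the 12, none was at 0. By edgeR 4 were higher in JR5558 at 8 weeks, beside 5.18% of all tested genes, and 7 at 4 weeks, beside 6.16%. An unadjusted p under 0.05 was held by 8 at 8 weeks and 9 at 4 weeks. For unadjusted p, here and below, no share of all tested genes is given to set beside the counts. With age 0 passed in JR5558, beside 1.51% of all tested genes, and 0 in C57BL/6J, beside 0.431%. There 6 in JR5558 and 5 in C57BL/6J had an unadjusted p under 0.05. Their values did not all run the same way, since Aqp4 stood at 127.1, 134.6 and 142.5 CPM at 8 weeks and 156.7, 155.4 and 149.0 CPM at 4 weeks in JR5558, while Glul, the most abundant, stood at 3106, 3115 and 3214 CPM at 8 weeks and 2355, 2432 and 2894 CPM at 4 weeks. A higher sum in JR5558 at 8 weeks was not particular to Müller glia markers. The 12 microglia and macrophage markers summed to 74.3 to 92.1 CPM in JR5558 and 43.9 to 48.1 CPM in C57BL/6J. The pigment epithelium sums given above did not overlap either. The rod sums, and those of endothelium and pericytes, were lower in JR5558 at that age. The part of any of these cells in the Prdx6 difference was not tested.

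**Figure D3:**
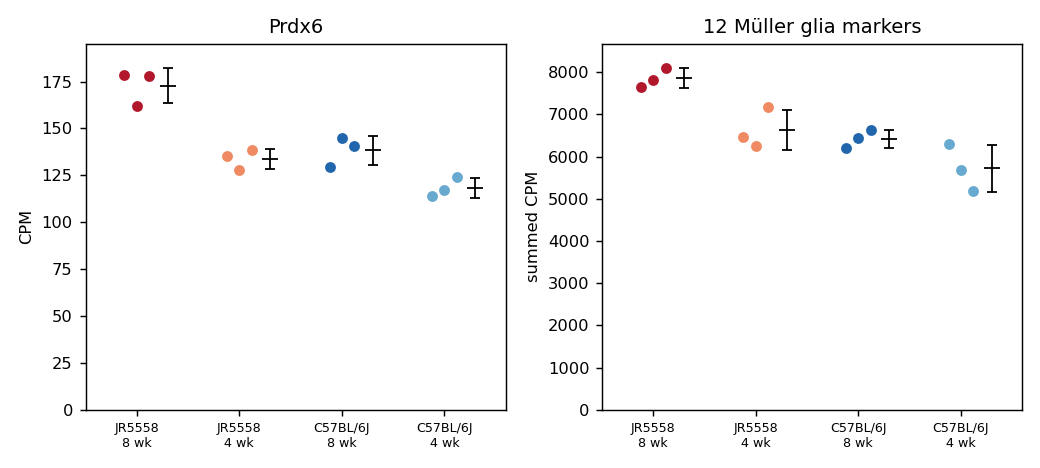
Prdx6 in CPM (left) and the summed CPM of 12 Müller glia markers (right) in each of the 12 retinas, with the mean ± SD of 3 mice. JR5558 at 8 weeks is the highest group in both panels, at 161.9 to 178.8 CPM and 7657 to 8107 CPM.

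Cat, the peroxisomal catalase, and Hmox1, the stress-inducible haem oxygenase, showed no difference past the threshold. Cat ranged from 26.4 to 36.8 CPM, and the largest of its 4 strain and age differences was 0.14 ± 0.11, between strains at 4 weeks (edgeR adjusted p = 0.525). Hmox1 measured 3.15, 3.77 and 3.52 CPM in JR5558 and 2.75, 5.25 and 3.53 CPM in C57BL/6J at 8 weeks. The 4-week levels were 4.70, 5.01 and 3.88 CPM in JR5558 and 3.95, 2.81 and 2.73 CPM in C57BL/6J. Its strain difference was -0.14 ± 0.25 at 8 weeks (edgeR adjusted p = 0.846) and 0.52 ± 0.25 at 4 weeks (adjusted p = 0.266). The age difference was -0.38 ± 0.25 in JR5558 (edgeR adjusted p = 0.466), where every 8-week retina lay below every 4-week retina. In C57BL/6J it was 0.28 ± 0.25 (edgeR adjusted p = 0.651), and the interaction was -0.66 ± 0.35 (edgeR adjusted p = 0.739).

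Counted together, few of the 8 tested enzymes other than Gpx3 passed. At 8 weeks 1 of 8 differed between strains, Prdx6, where 5.18% of 18334 tested genes did. At 4 weeks 0 of 8 did, where 6.16% of tested genes did; 3 had an unadjusted p under 0.05 in edgeR, and DESeq2 called 0. For age, 1 of 8 passed in JR5558, again Prdx6, beside 1.51% of tested genes. In C57BL/6J 0 of 8 passed by edgeR, beside 0.431%, with 4 unadjusted p under 0.05 and 1 DESeq2 call. For the interaction 0 of 8 passed by edgeR, beside 0.0927% of tested genes, with 1 unadjusted p under 0.05 and 0 DESeq2 calls. These shares of tested genes refer to adjusted p by edgeR, and none is given for the unadjusted counts. The median log2 fold change of the 8 was 0.02 between strains at 8 weeks and 0.18 at 4 weeks, and 0.06 with age in JR5558 and 0.21 in C57BL/6J, where that of all tested genes was between -0.01 and 0.00. Groups did not overlap for 1 of 8 between strains at 8 weeks, against 30.2% of tested genes, and for 2 of 8 at 4 weeks, against 19.6%. They did not overlap for 3 of 8 between ages in JR5558, against 24.3%, and for 3 of 8 in C57BL/6J, against 19.0%. Of those in JR5558, Sod1 and Prdx6 were higher and Hmox1 was lower at 8 weeks.

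**Figure D4:**
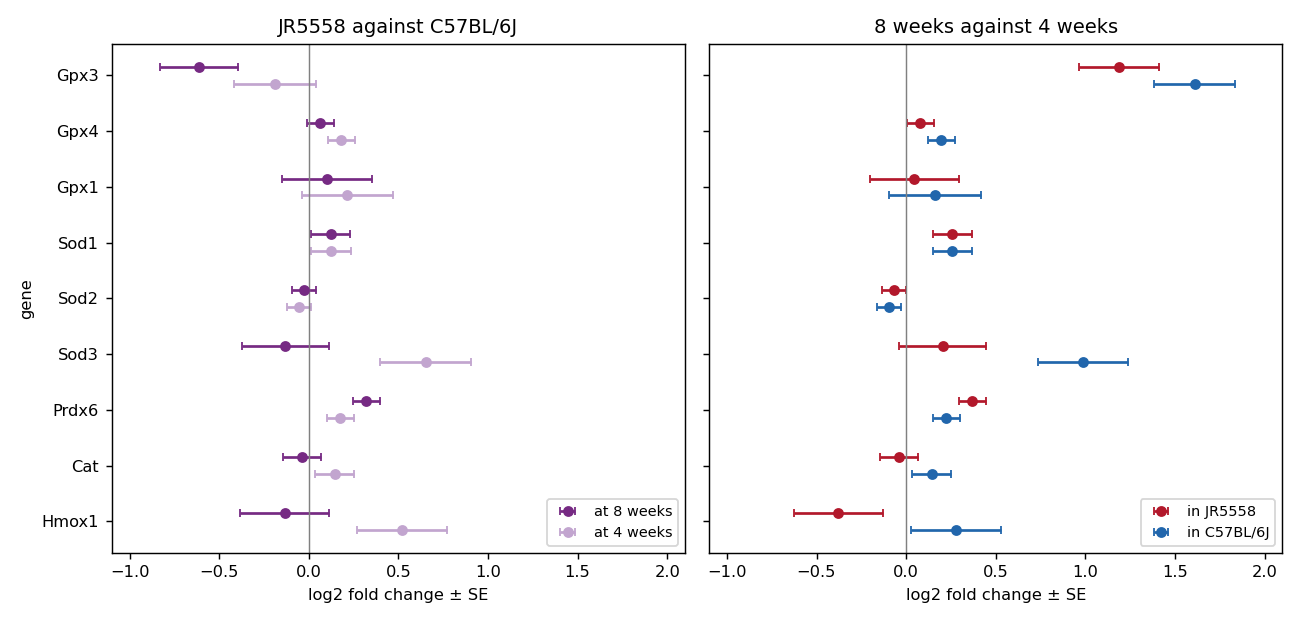
Log2 fold change ± SE of the 9 tested enzymes, for JR5558 against C57BL/6J at 8 and 4 weeks (left) and for 8 against 4 weeks in each strain (right). The Gpx3 age differences, 1.19 in JR5558 and 1.61 in C57BL/6J, lie furthest from 0, and those of Sod2 lie between -0.10 and -0.03.

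Nnt was near the floor in every library. Its first identifier (ENSMUSG00000025453, chromosome 13, minus strand) held 10, 7 and 6 counts in JR5558 and 10, 5 and 7 in C57BL/6J at 8 weeks, and 7, 1 and 5 in JR5558 and 7, 3 and 6 in C57BL/6J at 4 weeks. That made 74 counts in all 12 libraries, too few for a test, and the groups overlapped. The second identifier (ENSMUSG00000116207) held 0 counts in all 12, where 3 counts, 0.124 to 0.167 CPM per library, is the limit that a count of 0 allows for counting error only. Its model has no exon base outside the first model. If reads on both models were left uncounted, a count of 0 was certain, and the limit says nothing of this transcript.

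The annotation bears on these counts. The deposited lengths of 7037 and 3339 bases equal the joined exons of the 2 models in GENCODE M21, and all 3339 bases of the second, in 17 exons, lie within exons of the first. They make up 47.4% of the first model, and 3698 bases belong to the first alone. How reads that fall on both were counted is not given in the sources used here. Low counts in both strains can therefore not be read as lack of the transcript, and the known C57BL/6J deletion could not be seen in them. Of 62 genes that start within 2 Mb of Nnt at the deposited positions, 17 were tested, and 2 were lower in JR5558 at 4 weeks, beside 6.16% of all tested genes. Nim1k was at -0.54 ± 0.09 (edgeR adjusted p = 0.00126) and Tmem267 at -1.06 ± 0.26 (edgeR adjusted p = 0.0168). At 8 weeks Tmem267 was at -0.83 ± 0.25 (edgeR adjusted p = 0.0626) and Nim1k at -0.22 ± 0.09 (adjusted p = 0.212).

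**Figure D5:**
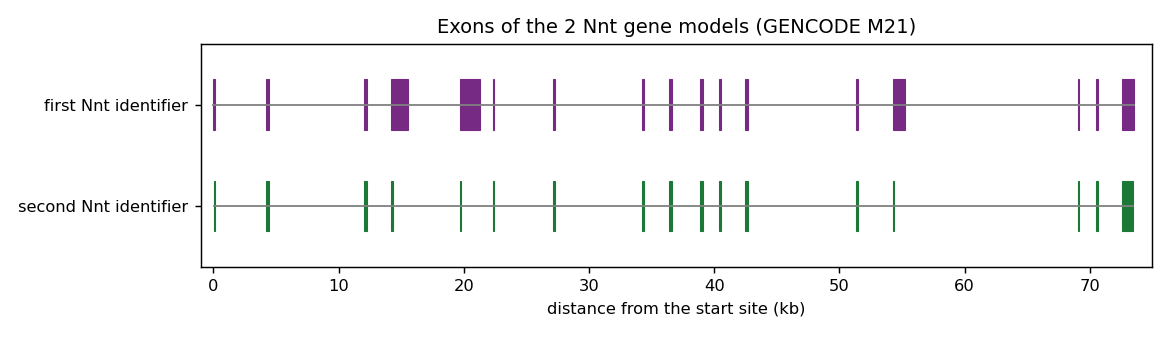
Exons (blocks) of the 2 Nnt gene models along the gene, in kb from the start site, first identifier above and second below. Every block of the second model lies within a block of the first, 3339 bases in all.

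The surrounding pathways gave few calls. The 10 lists of genes that make, use or recycle the same substrates held 159 symbols, of which 158 were in the table and 146 were tested. Between strains 9 of the 146 passed at 8 weeks, 6 higher and 3 lower in JR5558, and 9 passed at 4 weeks, 7 higher and 2 lower. That is 6.16% of the genes at each age, close to the shares over all tested genes. With age 1 of 146 was higher in JR5558, beside 1.51% of all tested genes, and 1 was higher and 1 lower in C57BL/6J, beside 0.431%.

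Among sources of NADPH, Me1, the cytosolic malic enzyme, was lower in JR5558. It averaged 131 ± 3.76 CPM in JR5558 and 179 ± 7.16 CPM in C57BL/6J at 8 weeks, and 129 ± 2.50 CPM in JR5558 and 162 ± 26.7 CPM in C57BL/6J at 4 weeks (SD, n = 3 each). The differences were -0.45 ± 0.09 (edgeR adjusted p = 0.0046) and -0.33 ± 0.09 (edgeR adjusted p = 0.0367). At 4 weeks the largest C57BL/6J value, 192.5 CPM, was that of replicate 3, and the difference was -0.18 ± 0.07 without it (adjusted p = 0.115). Aldh1l1, which makes NADPH from formyl folate and is also an astrocyte marker, was higher by 0.59 ± 0.11 at 8 weeks (edgeR adjusted p = 0.0024) and 0.39 ± 0.11 at 4 weeks (edgeR adjusted p = 0.0448). Mthfd1 was higher by 0.39 ± 0.11 at 8 weeks (edgeR adjusted p = 0.045).

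Among iron, lipid and glutathione genes, Ftl1, the ferritin light chain, was higher in JR5558 by 0.35 ± 0.07 at both ages, although near-identical copies make its counts uncertain. Pon2, an intracellular paraoxonase, was higher by 0.34 ± 0.08 at 8 weeks (edgeR adjusted p = 0.015) and 0.39 ± 0.08 at 4 weeks (edgeR adjusted p = 0.0057). Aldh3a2, which oxidises fatty aldehydes, was higher at 4 weeks by 0.35 ± 0.08 (edgeR adjusted p = 0.0112). Chac1, which degrades glutathione, was lower at 8 weeks, at 2.55 ± 0.23 CPM in JR5558 and 6.53 ± 0.81 CPM in C57BL/6J (-1.35 ± 0.27, edgeR adjusted p = 0.0038), and Mafg, a partner of NRF2, was lower by 0.41 on the log2 scale. Ggct, another enzyme of glutathione breakdown, was lower at 4 weeks by 0.61. The transferases Gstm5 (0.36 ± 0.09 at 8 weeks) and Gsta4 (0.38 ± 0.11 at 4 weeks) were higher in JR5558, and Gstm1 rose with age in C57BL/6J (0.56 ± 0.11); all belong to families with close copies. Atp7a, a copper transporter that loads Sod3, fell with age in C57BL/6J, with 5.26 ± 0.16 CPM at 8 weeks and 11.0 ± 1.27 CPM at 4 weeks (-1.06 ± 0.19, edgeR adjusted p = 0.0155).

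Among selenoproteins, Dio2, the deiodinase that activates thyroid hormone, was the gene with the largest difference. It measured 93.9, 104.2 and 121.9 CPM in JR5558 and 27.2, 23.2 and 25.2 CPM in C57BL/6J at 8 weeks, a difference of 2.08 ± 0.20 (edgeR adjusted p = 1.46e-06). At 4 weeks it measured 37.5, 30.4 and 62.2 CPM in JR5558 and 27.5, 36.5 and 44.3 CPM in C57BL/6J, which overlapped. Selenon was higher in JR5558 at 4 weeks by 0.37 ± 0.08 (edgeR adjusted p = 0.0103), and Txnrd3, a thioredoxin reductase, by 0.74 ± 0.21 (adjusted p = 0.0389), or by 0.39 ± 0.17 without JR5558 replicate 3 (adjusted p = 0.244). Leaving out single libraries ended no call of Dio2, Chac1, Aldh1l1, Me1 and Ftl1 at 8 weeks, of Ftl1 and Pon2 at 4 weeks, or of Dio2 with age in JR5558. Of the 6 fits that each left out 1 library of the groups compared, at 8 weeks the call ended in 5 for Gstm5 (highest edgeR adjusted p = 0.0994), Pon2 (0.0715) and Mthfd1 (0.203) and in 4 for Mafg (0.153). At 4 weeks it ended in 5 for Gsta4 (highest edgeR adjusted p = 0.186), Aldh1l1 (0.127) and Ggct (0.155), in 4 for Me1 (0.115), in 3 for Txnrd3, and in 1 for Aldh3a2 (0.0832, without C57BL/6J replicate 2) and Selenon (0.0528, without JR5558 replicate 3). With age in C57BL/6J it ended in 5 for Gstm1 (highest edgeR adjusted p = 0.162) and in 3 for Atp7a (0.0941). With the pigment epithelium covariate, which also separates the strains, 7 of the 9 calls at 8 weeks ended, while Dio2 and Me1 still passed. The differences were then -1.28 ± 0.46 for Chac1 (edgeR adjusted p = 0.274), 0.67 ± 0.19 for Aldh1l1 (0.122), 0.33 ± 0.12 for Ftl1 (0.278) and 0.52 ± 0.18 for Mthfd1. For these genes the SE was larger than in the main fit. The differences of Mafg (-0.22 ± 0.16), Gstm5 (0.19 ± 0.14) and Pon2 (0.26 ± 0.14) were smaller in size than in the main fit. At 4 weeks all 9 calls ended with that covariate, Ftl1 (0.32 ± 0.13, edgeR adjusted p = 0.337) and Pon2 (0.29 ± 0.15, adjusted p = 0.447) included. All 9 also ended when only the 2 groups were fitted, with Ftl1 at an edgeR adjusted p of 0.0583 and Pon2 at 0.0755.

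The regulators and classic targets of NRF2 in the list gave 3 calls of 20 between strains at 8 weeks, 1 higher and 2 lower in JR5558, beside 5.18% of all tested genes, and 2 of 20 at 4 weeks, 1 higher and 1 lower, beside 6.16%. Of the 18 producers of reactive oxygen and nitrogen, 11 held enough counts to be tested. By edgeR 0 of 11 passed between strains at 8 weeks, beside 5.18% of all tested genes, and 0 at 4 weeks, beside 6.16%. At each age 2 had an unadjusted p under 0.05, with no share of all tested genes given for it. With so few genes, 0 calls cannot be read as a lack of change.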

How the data were processed

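Reads were handled by the authors with featureCounts 1.5.0-p3, HISAT2 2.0.5, fastp and genome mm10, per the submitters' processing notes. Per the file headers, raw counts, gene lengths in bases and the authors' FPKM stand in the deposited table. The deposited FPKM equals the count over the length and over a single total per library, 0.981 to 1.03 times the summed counts. Of 52073 identifiers also in GENCODE M21, 2.83% had equal start and end, and 0 of the enzymes did, so the build of the deposited positions is unsettled and none is printed. The labels do not settle whether libraries were strand-specific, so genes that overlap on opposite strands are uncertain.

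The software was edgeR 4.0.16, DESeq2 1.42.0, limma 3.58.1 and data.table (1.17.8) under R 4.3.3. The 18334 genes passing filterByExpr (minimum count 10, minimum total 15) were fitted with TMM scaling and a mean for each group over all 12 libraries, and edgeR's quasi-likelihood test was applied (2-sided, Benjamini-Hochberg over all tested genes, threshold 0.05). The 5 contrasts compared strains at 8 and 4 weeks, ages within JR5558 and C57BL/6J, and the interaction. Correlations used log2 CPM with a prior count of 2. The scripts were tested on simulated data. P-values measure the spread between mice, 3 per group.

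The enzymes and the pathway lists were chosen with earlier results of these data known. Genes named were the 10 enzymes, up to 3 genes past the threshold per pathway list in the order of their smaller adjusted p between strains, the 5 genes most correlated with Gpx3, and up to 3 called genes within 2 Mb of Nnt. For likeness to Gpx3, genes with a mean under 1 CPM, pseudogenes and unnamed gene models were left out. Likeness to Nnt was not computed because its counts were below the filter. Alternatives were RLE scaling, no filter, at least 1 CPM in 3 libraries, DESeq2, fits of the compared groups only, a replicate block, a pigment epithelium covariate (mean log2 CPM of its markers) and leaving out each library. A fit without the 4-week replicates 3 of both strains was chosen after seeing the data.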

Additional observations from a re-analysis of the deposited data

Results flagged for a closer look

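Dio2, a selenoprotein of the pathway lists, showed a strain difference that changed with age by 1.82 ± 0.28 on the log2 scale (edgeR quasi-likelihood interaction test, adjusted p = 0.0105, 3 mice per group). It was higher at 8 weeks than at 4 weeks by 1.30 ± 0.20 in JR5558, with all 3 mice above, and differed by -0.52 ± 0.20 in C57BL/6J, with all 3 mice below. The interaction left the threshold without C57BL/6J 8-week replicate 2 (1.77 ± 0.31, adjusted p = 0.0585). The JR5558 retinas of 4 weeks differed from all others in Xist and Ddx3y counts, and the part of sex in this difference cannot be told apart.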

How the results depend on the processing

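Of the 45 values of the 9 tested enzymes (5 contrasts each), RLE scaling, the filter of 1 CPM in 3 libraries and the replicate block changed no call. Counts of enzymes called below include Gpx3 and are not evidence for it. They are to be set beside the main fit of all 9 and not beside the counts of 8 above. In that fit 1 was called between strains at 8 weeks, 0 at 4 weeks and 2 with age in JR5558. In C57BL/6J 1 was called with age, and 0 were called for the interaction. DESeq2 added 1 call, no filter 3, fits of the compared groups 1 and leaving out the 4-week replicates 3 of both strains 2, while the pigment epithelium covariate ended 1. Leaving out each library in turn ended a call in 10 of 324 values and added one in 3. Most of the 324 held no call to lose. For Prdx6 the call ended in 3 of 6 fits between strains at 8 weeks and in 4 of 6 with age in JR5558. The remaining endings were of Gpx3. The replicate numbers were not treated as pairs, since correlations of same-numbered deviations were between -0.114 and 0.0867; with the replicate block, Aldh1l1 at 4 weeks (adjusted p = 0.0718) and Mthfd1 at 8 weeks (0.0607) left the threshold.

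With no filter, enzymes called were 2 between strains at 8 weeks, 1 at 4 weeks, and 2 with age in C57BL/6J. Pathway genes called with age were then 10 in JR5558 and 5 in C57BL/6J. All genes called were 854 with age in JR5558, 445 in C57BL/6J and 96 for the interaction. With DESeq2, 2 enzymes were called with age in C57BL/6J, pathway genes called with age were 7 in JR5558 and 4 in C57BL/6J, and all genes called were 746 with age in JR5558, 407 in C57BL/6J and 63 for the interaction. With only the groups compared, 2 enzymes were called between strains at 8 weeks, pathway genes were 21 at 8 weeks and 0 at 4 weeks, 5 with age in JR5558 and 1 in C57BL/6J, and all genes were 2184 between strains at 8 weeks, 558 at 4 weeks, 544 with age in JR5558 and 22 in C57BL/6J. With the pigment epithelium covariate, which also separates the strains, 0 enzymes were called between strains at 8 weeks, pathway genes were 2 at 8 weeks and 0 at 4 weeks, 2 with age in JR5558 and 1 in C57BL/6J, and all genes between strains were 229 at 8 weeks and 212 at 4 weeks. Without the 4-week replicates 3 of both strains, 2 enzymes were called between strains at 8 weeks, pathway genes were 19 between strains at 8 weeks, 19 with age in JR5558 and 2 for the interaction, and all genes were 1967 between strains at 8 weeks, 2251 with age in JR5558, 179 in C57BL/6J and 307 for the interaction.

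Leaving out each library in turn, enzymes called ranged from 0 to 1 between strains at 8 weeks and from 0 to 1 at 4 weeks, from 0 to 2 with age in JR5558 and from 1 to 2 in C57BL/6J. Pathway genes ranged from 5 to 7 between strains at 8 weeks and from 4 to 13 at 4 weeks, from 1 to 6 with age in JR5558, from 0 to 3 in C57BL/6J and from 0 to 1 for the interaction. All genes ranged from 538 to 650 between strains at 8 weeks and from 814 to 1162 at 4 weeks, from 63 to 689 with age in JR5558 (highest without 4-week replicate 3), from 16 to 125 in C57BL/6J (highest without 4-week replicate 1) and from 6 to 38 for the interaction. Differences of 15 enzyme values changed sign in 36 fits, none called before or after (lowest adjusted p 0.432). With the pigment epithelium covariate, Gpx3 (0.10) and Cat (-0.21) at 4 weeks and Gpx4 (-0.067) and Sod3 (0.078) at 8 weeks did so between strains. Without the 4-week replicates 3 of both strains, so did Sod1 between strains at 4 weeks (-0.062), Sod3 (-0.022) and Gpx1 (-0.15) with age in JR5558, and the Sod1 interaction (0.19). The Sod1 interaction, near 0, was also above it with RLE scaling (0.0023), no filter (0.020), the 1 CPM filter (0.0060) and DESeq2 (0.0024). Leaving out single libraries, strain differences that crossed 0 at 8 weeks ranged from -0.014 to 0.13 for Gpx4, from -0.048 to 0.0022 for Sod2, from -0.077 to 0.0017 for Cat, from -0.37 to 0.035 for Sod3, from -0.33 to 0.15 for Hmox1 and from -0.019 to 0.25 for Gpx1. At 4 weeks that of Sod1 ranged from -0.026 to 0.25. Age differences in JR5558 ranged from -0.10 to 0.022 for Cat, from -0.040 to 0.37 for Sod3 and from -0.15 to 0.24 for Gpx1, and in C57BL/6J from -0.012 to 0.47 for Hmox1. Interactions ranged from -0.12 to 0.15 for Sod1 and from -0.31 to 0.075 for Gpx1. The causes were not tested. The 3 mice per group and 74 counts of Nnt limit what could be detected.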
